A study of Mus musculus with 12 samples.

Results

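Ccl2, Ccl3, Ccl4, Ccl5, Ccl6 and Ccl9 are 6 of the 28987 genes in the deposited table of neutrophil RNA, and were chosen by name, with their levels in the 4 groups already known. They encode CC chemokines, the small secreted proteins that draw leukocytes toward a site of inflammation. Neutrophils were sorted out of the marrow of the bones (BM) and out of the peritoneal cavity (PT). The FVB mice were either wild-type (WT) or carried the MRP8-Bcl2 transgene, and each of the 4 combinations (BM WT and PT WT, BM Bcl2 and PT Bcl2) has 3 libraries. In MRP8-Bcl2 mice the regulatory regions of the human MRP8 gene, which is active in myeloid cells, drive human Bcl-2, an inhibitor of cell death. All mice, including those that gave the marrow cells, had received 2 mL of thioglycollate into the peritoneum, an irritant that brings neutrophils into the cavity. The sample labels give 6 h for the time of collection whereas the methods give 4 or 8 h, and the labels name macrophages as the source cells whereas the methods and the design text name neutrophils. The ages of the mice were not given. The methods state that BM and PT cells came from each mouse, but the library columns carry no mouse number, so libraries are called here by the number in their column name. Nothing says that the 3 libraries of a group came from separate mice, so the p-values below measure only the spread between these libraries.

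CC chemokines are named for a pair of adjacent cysteines near the start of the mature protein. They act on G protein-coupled receptors of the CCR family, and 1 chemokine often binds several receptors. Ccl3 (macrophage inflammatory protein alpha) and Ccl4 (its beta counterpart) draw monocytes and lymphocytes, and Ccl3 acts through Ccr1. Ccl5, known as RANTES, draws T cells and monocytes and also acts on Ccr1. Ccl2, or monocyte chemoattractant protein, draws monocytes through Ccr2. Ccl6 and Ccl9 are rodent chemokines that act on Ccr1 and are made constitutively by many myeloid cells. Neutrophils are known to produce CC chemokines when activated in tissue.

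The stretch of coding sequence that gives the family its name is shown for each gene, because it is the feature the 6 share. The capitals mark the codons of the adjacent cysteines, and the sequences were read from the transcripts of GENCODE M21 (GRCm38).
Ccl2: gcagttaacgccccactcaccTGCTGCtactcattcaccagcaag
Ccl3: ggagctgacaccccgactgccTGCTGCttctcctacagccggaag
Ccl4: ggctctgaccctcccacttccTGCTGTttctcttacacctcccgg
Ccl5: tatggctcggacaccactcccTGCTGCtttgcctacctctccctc
Ccl6: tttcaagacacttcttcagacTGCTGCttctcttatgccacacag
Ccl9: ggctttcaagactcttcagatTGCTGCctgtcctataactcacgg
Ccl4 spelled the second cysteine TGT and the others spelled it TGC. The pair fell at codons 34 and 35 in Ccl2, Ccl3 and Ccl4 and at codons 33 and 34 in Ccl5. In Ccl6 it came later, at codons 50 and 51, and in Ccl9 at codons 57 and 58. Ccl3 and Ccl4 were the most alike of the 15 pairs of coding sequences, with 71.4% of aligned bases identical, followed by Ccl6 and Ccl9 with 70.6%. No stretch of 31 bases in Ccl2, Ccl3 or Ccl4 occurred in any other annotated gene, and the share of such stretches found elsewhere was 0.54% in Ccl5, 1.02% in Ccl6 and 3.98% in Ccl9.

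All 6 genes lie on chromosome 11 (GRCm38), and each is annotated as protein coding. Ccl2 is at chr11:82035571-82037453 on the plus strand. The others sit in 1 cluster that begins 1488325 nt downstream and spans 138906 nt. The cluster holds Ccl5 (chr11:83525778-83530518), Ccl9 (chr11:83572919-83578636), Ccl6 (chr11:83587882-83593087) and Ccl3 (chr11:83647844-83649355) on the minus strand and Ccl4 (chr11:83662584-83664683) on the plus strand. Ccl3 and Ccl4 point away from each other with 13229 nt between them, and Ccl9 and Ccl6 are 9246 nt apart in the same orientation.

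The 250 bases before the annotated start were in the RefSeq promoter table (GRCm38.p6) for 3 members, Ccl3, Ccl6 and Ccl9. They are shown because in MRP8-Bcl2 mice every PT library lay above the BM libraries for Ccl3 and Ccl6 and below them for Ccl9, the nearest neighbour of Ccl6. In these mice 5.18% of all genes tested lay above in this way and 32.6% below. The log2 difference of Ccl9, -0.77, turned to 0.82 when each library was centred on its median. In WT it was 1.33, with overlapping libraries. Each sequence runs 5′ to 3′ toward the start, is on the minus strand, and carries in capitals every match to the motifs searched.
Ccl3, chr11:83649379-83649628: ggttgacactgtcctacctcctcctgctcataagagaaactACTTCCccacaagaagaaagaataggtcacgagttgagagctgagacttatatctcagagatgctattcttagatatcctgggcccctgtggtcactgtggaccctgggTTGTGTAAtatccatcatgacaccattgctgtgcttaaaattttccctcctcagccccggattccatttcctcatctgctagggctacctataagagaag
Ccl6, chr11:83593088-83593337: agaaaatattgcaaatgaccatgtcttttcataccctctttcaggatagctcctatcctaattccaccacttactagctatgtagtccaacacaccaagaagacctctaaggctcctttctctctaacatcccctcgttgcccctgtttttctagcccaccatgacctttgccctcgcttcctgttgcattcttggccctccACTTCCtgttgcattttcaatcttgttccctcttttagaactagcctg
Ccl9, chr11:83578637-83578886: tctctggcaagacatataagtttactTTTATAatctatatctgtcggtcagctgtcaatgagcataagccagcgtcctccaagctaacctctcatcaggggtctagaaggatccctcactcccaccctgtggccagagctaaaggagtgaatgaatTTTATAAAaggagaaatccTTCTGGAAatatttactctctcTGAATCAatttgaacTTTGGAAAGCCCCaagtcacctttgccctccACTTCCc
Both strands were searched for the TATA box TATAAA, the AP-1 motif TGANTCA, the C/EBP motif TTNNGNAA, the ETS motif GGAAGT and the NF-kB consensus. The ETS motif was present once in each of the 3, against 19.7% of all 32851 promoters. The C/EBP motif was present in Ccl3 and Ccl9, against 36.8% of promoters. Ccl9 held the other 3 motifs as well, namely the TATA box with 3 matches, a pair of them overlapping (12.4% of promoters), the AP-1 motif (6.75%) and the NF-kB consensus, whose match overlaps that of a C/EBP motif (7.25%). These are matches of letters within 250 bases and say nothing about which factors bind there.

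The values are log2(TPM + 1), where TPM is the share of a gene in its library, corrected for transcript length and scaled to a fixed total, so that levels of different genes can be set side by side. Because TPM is a share, a higher value means a larger part of the library, and fewer cells of a type could not be told apart from less RNA per cell. TPM holds no read totals. From the spacing of low values, 1 read on a transcript of 1000 nt was worth 0.343 to 1.60 TPM, with a finer step in PT WT (0.343 to 0.452) than in BM Bcl2 (0.900 to 1.60). The neutrophil genes S100a8, S100a9, Csf3r and Cxcr2 were at 132 TPM or more in all 12 libraries, and Ly6g was at 0 in library 12 (PT WT). The 7 neutrophil genes together were lower in PT, with sums of 14376 to 67618 TPM against 76470 to 348450 TPM in BM. Of these 7, 0 were called higher and 3 lower in PT of WT mice, against 1.59% and 1.22% of all genes. In MRP8-Bcl2 mice 1 was called higher and 2 lower, against 2.31% and 19.1% of all genes. The part of these 7 genes in the chemokine levels was not tested. The 10 macrophage genes summed to 15.1 to 120 TPM in BM and to 18.8 to 141 in PT. No library had C1qa above 2.45 TPM or Gata6 above 0.60 TPM. Other genes of the list therefore made up most of each sum, and the part of macrophages was not tested. The gene entry Bcl2 was at 166, 224 and 333 TPM in BM Bcl2 and at 0.22 to 2.37 TPM in WT, but the libraries labelled PT Bcl2 were at 82.8 and 58.6 TPM (libraries 7 and 8) and 0.69 TPM (library 9). The library labelled PT Bcl2 with number 9 therefore goes against its label, and the differences, calls, shares and correlations that use it are given with and without it. In PT against BM of MRP8-Bcl2 mice, the median of all tested genes lay at -1.02 on the log2 scale as deposited, at 0.57 after centring each library on its median and at -0.0001 after quantile normalization. In WT the median was 0.22 as deposited, and differences of single genes stand against these medians.

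Ccl3 and Ccl4, the macrophage inflammatory proteins, stood far higher in PT than in BM in both genotypes. Levels of Ccl3 were 12.7, 17.8 and 7.39 TPM in BM WT (libraries 4, 5 and 6) against 1427, 670.3 and 244 TPM in PT WT (libraries 10, 11 and 12). The levels were 0, 20.8 and 11.4 TPM in BM Bcl2 (libraries 1, 2 and 3) and 2512, 1140 and 600.5 TPM in PT Bcl2 (libraries 7, 8 and 9). Every PT library lay above every BM library, in WT (as for 14.9% of all genes tested) and in MRP8-Bcl2 mice (5.18% of all genes). For Ccl4, BM WT held 0, 0 and 3.84 TPM, and PT WT held 207, 113 and 74.9 TPM. In the MRP8-Bcl2 mice it was at 1.64, 4.42 and 0 TPM in BM and at 320.1, 309 and 139 TPM in PT. Again no PT library overlapped with a BM library. The marrow levels of Ccl4 rested on at most about 5 reads per library, and those of Ccl3 on at most about 12, against about 386 to 2860 reads of Ccl3 in PT. In log2(TPM + 1), Ccl3 differed by 5.58 ± 0.98 (SE, n = 3 per group) in WT and by 7.53 ± 0.98 in MRP8-Bcl2 mice. For Ccl4 the difference was 6.17 ± 0.80 in WT and 6.63 ± 0.80 in MRP8-Bcl2 mice. Without library 9, the difference in MRP8-Bcl2 mice was 8.03 for Ccl3 and 7.02 for Ccl4, and without library 1 it was 6.19 for Ccl3. Adding 1 TPM before taking logs makes such differences smaller than the ratio of the TPM values for genes near 0. These differences were known when the genes were chosen and are given as a description without a p.

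**Figure D1:**
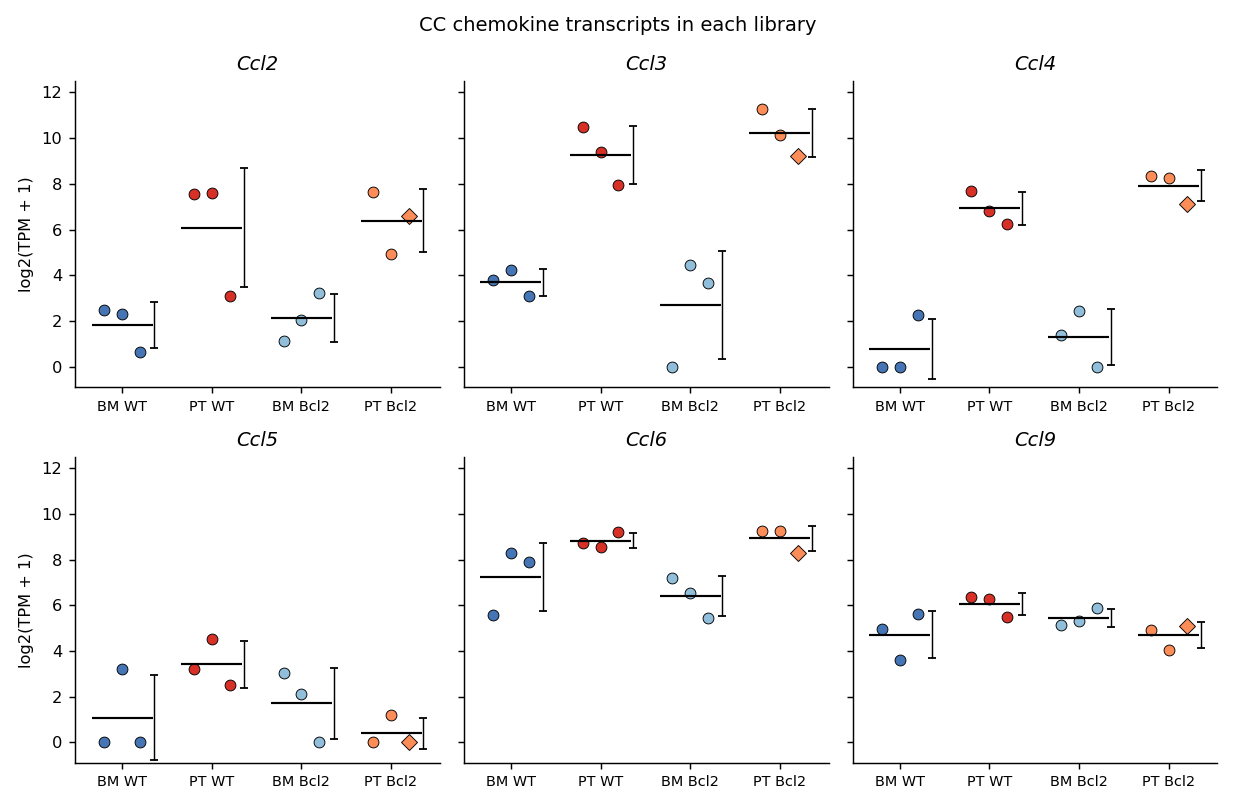
Level of each CC chemokine in log2(TPM + 1) (vertical axis, the same in all panels) in the 3 libraries of each group, with the group mean (line) and the SD (bar). The diamond is library 9, labelled PT Bcl2, whose Bcl2 level is like that of WT. Ccl3 and Ccl4 in PT lie above every BM library, whereas Ccl5 and Ccl9 overlap between PT WT and BM WT.

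Ccl2, the Ccr2 ligand, was low in marrow and high in most PT libraries. BM WT held 4.63, 3.99 and 0.57 TPM, and PT WT held 189, 190.3 and 7.46 TPM, the last in library 12. In MRP8-Bcl2 mice it was at 1.19, 3.16 and 8.40 TPM in BM and at 199, 29.2 and 94.2 TPM in PT. PT and BM did not overlap within either genotype, but library 12 (7.46 TPM) lay below 1 library of BM Bcl2 (8.40 TPM). The difference of PT from BM was 4.26 ± 1.11 in WT and 4.24 ± 1.11 in MRP8-Bcl2 mice. It was 5.76 in WT without library 12 and was 4.14 in MRP8-Bcl2 mice without library 9. Library 12 also held the highest sum of the 5 mast cell genes, 678 TPM against 4.91 to 78.0 in the others, with Cpa3 (mast cell carboxypeptidase) at 481 TPM, and the part of these cells in the low Ccl2 was not tested.

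Ccl6 was the highest of the 6 in 5 of the 6 BM libraries (Ccl9 exceeded it in library 3). In BM WT it was at 46.0, 314 and 234 TPM and in PT WT at 424, 372 and 588 TPM. Corresponding levels in MRP8-Bcl2 mice were 146, 91.8 and 42.7 TPM in BM and 604, 614 and 314 TPM in PT. Every PT library of a genotype lay above its BM libraries, although library 9 (314 TPM) was level with library 5 of BM WT (314 TPM). The difference was 1.58 ± 0.68 in WT and 2.54 ± 0.68 in MRP8-Bcl2 mice, and 2.86 in the latter without library 9. The value in WT rested in large part on library 4, the BM WT library with the least Ccl6, since it was 0.74 without it.

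Ccl9, the neighbour of Ccl6, overlapped between PT and BM in WT and was lower in every PT library in MRP8-Bcl2 mice. Its levels were 29.7, 11.04 and 47.6 TPM in BM WT against 80.7, 76.8 and 44.3 TPM in PT WT, where library 12 fell within the range of marrow. In MRP8-Bcl2 mice it was at 34.5, 38.8 and 58.5 TPM in BM and at 28.8, 15.3 and 33.6 TPM in PT. PT differed from BM by 1.33 ± 0.62 in WT, and by 0.77 without library 5. In MRP8-Bcl2 mice every PT library lay below every BM library, as for 32.6% of all genes, with a difference of -0.77 ± 0.62 (-0.99 without library 9) that turned to 0.82 when each library was centred on its median.

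Ccl5 was the lowest of the 6 in every PT library and was at 0 in 5 of the 9 libraries outside PT WT and in none of PT WT. BM WT held 0, 8.33 and 0 TPM, and PT WT held 8.33, 22.2 and 4.64 TPM. BM Bcl2 held 7.22, 3.29 and 0 TPM, and PT Bcl2 held 0, 1.26 and 0 TPM. These values stand for about 27 reads at most, and most for fewer than 6. PT differed from BM by 2.34 ± 1.00 in WT and by -1.32 ± 1.00 in MRP8-Bcl2 mice (-1.13 without library 9), and the latter was -0.66 without library 1 and -2.18 without library 3, and turned to 0.27 when each library was centred on its median.

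A gene was called where limma gave a Benjamini-Hochberg adjusted p below 0.05 together with a 2-fold or larger difference. By this rule 2 of the 6 were called higher in PT of WT mice, Ccl3 and Ccl4, where 1.59% of the 13456 genes tested were. In MRP8-Bcl2 mice 4 were called higher, Ccl2, Ccl3, Ccl4 and Ccl6, where 2.31% of all genes were. None was called lower in either genotype, against 1.22% and 19.1% of all genes. The members were chosen with this contrast in view, so nothing is read from these counts. The median difference of the 6 was 3.30 in WT, with 0.22 over all tested genes, and 3.39 in MRP8-Bcl2 mice, with -1.02 over all tested genes. Both comparisons use the same fit. All 6 passed the filter on low values of at least 1 TPM in at least 3 libraries.

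**Figure D2:**
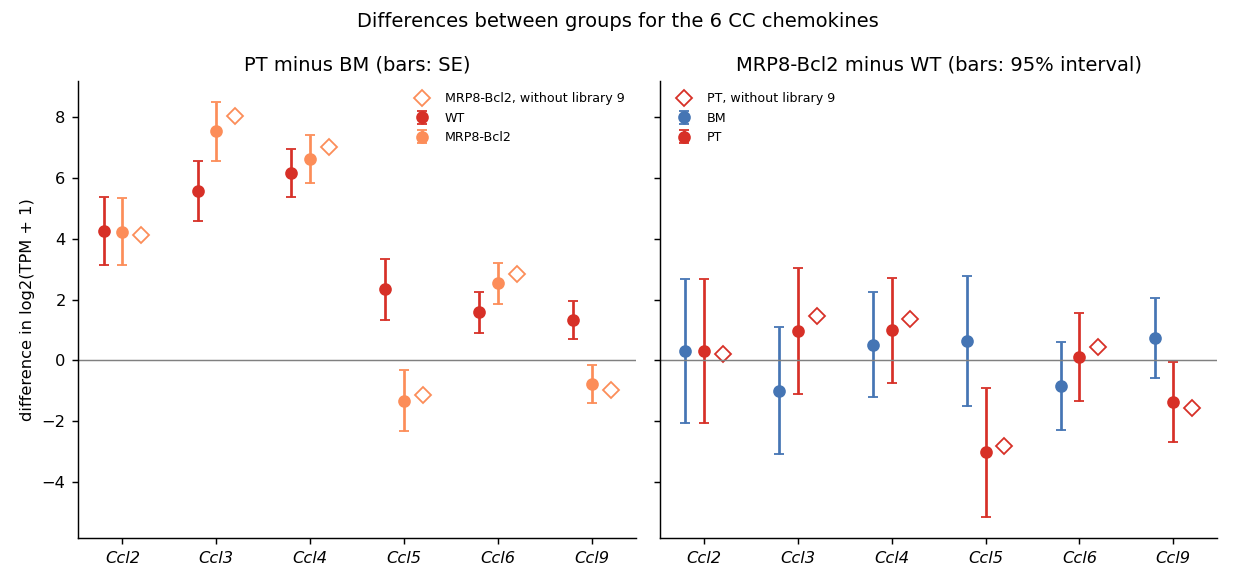
Difference in log2(TPM + 1) for each CC chemokine (horizontal axis) between PT and BM within a genotype (left, bars are SE) and between genotypes within a site (right, bars are 95% intervals of the fit). Open diamonds leave out library 9. Ccl3 and Ccl4 show the largest differences of the 6 between PT and BM, and in the right panel the intervals of Ccl5 and Ccl9 in PT lie below 0, although neither passed the test after adjustment.

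The make-up of the 6 also differed between the sites, a measure that does not depend on scaling between libraries. In marrow, Ccl6 and Ccl9 together made up 80.5 to 96.0% of the summed TPM of the 6 in all 6 libraries. In PT their share was 17.3 to 31.1% in 5 libraries and 65.6% in library 12. Ccl3 and Ccl4 together took 0.86 to 15.5% in marrow and 33.1 to 77.3% in PT. The sum itself was 93.0 to 355 TPM in BM WT, 964 to 2335 TPM in PT WT, 121 to 191 TPM in BM Bcl2 and 1181 to 3663 TPM in PT Bcl2. Ccl3 alone accounted for 44.3 ± 17.97% (SD, n = 3) of PT WT and 57.8 ± 9.43% of PT Bcl2 (61.3% without library 9). Within PT, Ccl3 exceeded Ccl4 by 3.26 to 7.85 times in all 6 libraries, and Ccl6 exceeded Ccl9 by 4.85 to 40.0 times.

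**Figure D3:**
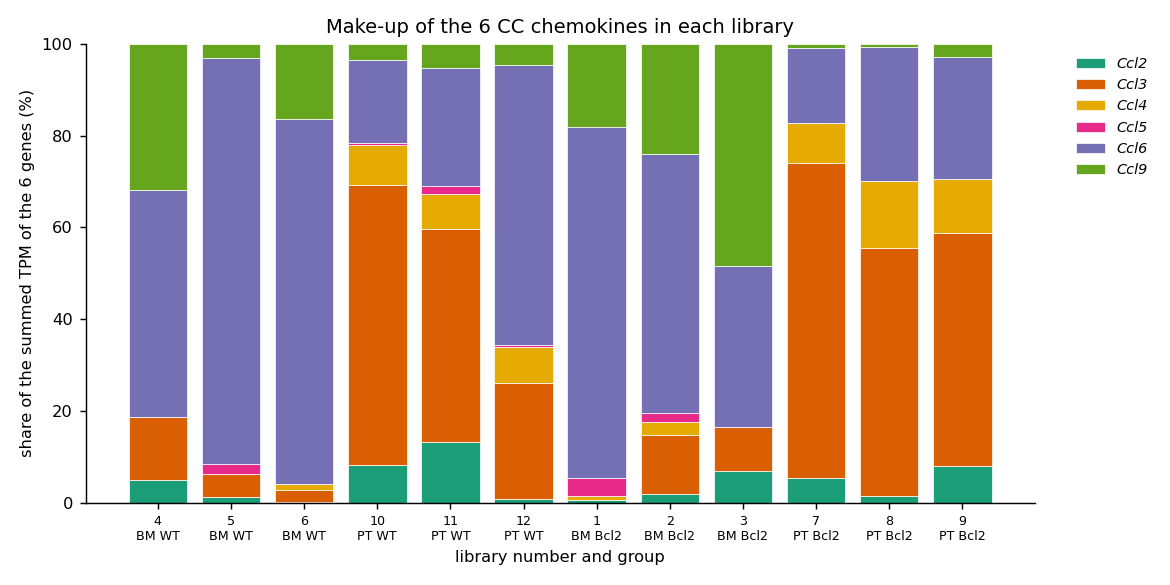
Share of each CC chemokine (colours) in the summed TPM of the 6 genes, in percent, for each of the 12 libraries (horizontal axis, library number and group). Ccl6 and Ccl9 fill at least 80.5% of every BM library, and Ccl3 and Ccl4 fill 54.2% or more of every PT library other than library 12, where they fill 33.1%.

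Genotypes were compared to ask whether enforced Bcl-2 expression went with other chemokine levels. None of the 6 was called between genotypes, in BM or in PT, by limma (0 of 6 in each, where 0.0223% of all genes were called in BM and 0.0297% in PT). At an unadjusted p under 0.05 there were 0 of 6 in BM (7.36% of all genes) and 2 of 6 in PT (12.7% of all genes), Ccl5 and Ccl9. In PT, the difference of MRP8-Bcl2 from WT mice was -3.03 for Ccl5 on the log2 scale (95% interval -5.16 to -0.90, limma adjusted p = 0.295). For Ccl9 it was -1.37 (-2.68 to -0.05, limma adjusted p = 0.378). In both, all 3 PT Bcl2 libraries lay below all 3 PT WT libraries, as they did for 18.8% of all tested genes. The exact 2-sided permutation test gave p = 0.1 for each, the smallest p that 3 against 3 libraries allow. Without library 9 the differences were -2.83 (limma adjusted p = 0.286) and -1.58 (limma adjusted p = 0.315). The all-gene median of this comparison was -0.67 as deposited. After centring each library on its median, Ccl5 differed by -1.96 and Ccl9 by -0.30, against an all-gene median of 0.40.

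In PT, Ccl3 and Ccl4 of MRP8-Bcl2 mice differed from WT by 0.96 (95% interval -1.12 to 3.04) and 0.98 (-0.73 to 2.70), with overlapping libraries and limma adjusted p-values of 0.681 and 0.606. Without library 9 these differences were 1.46 and 1.38 (limma adjusted p = 0.552 and 0.494). Ccl2 differed by 0.30 (-2.07 to 2.67) and Ccl6 by 0.11 (-1.33 to 1.55), or by 0.20 and 0.43 without library 9. In marrow the differences ran from -0.998 for Ccl3 (-3.08 to 1.08) to 0.74 for Ccl9 (-0.57 to 2.06), with limma adjusted p-values of 0.751 to 0.954, and all 6 genes overlapped between genotypes. The intervals of all 6 members, in BM and in PT, held a 2-fold difference in at least 1 direction. Whether the levels were equal between genotypes was not tested.

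The change from BM to PT was also compared between genotypes directly. None of the 6 passed (limma, 0.0149% of all genes called), and 2 of 6 had an unadjusted p under 0.05 (16.9% of all genes). For Ccl9 the change differed by -2.11 between MRP8-Bcl2 and WT mice (95% interval -3.97 to -0.25, limma adjusted p = 0.265). For Ccl5 it differed by -3.67 (-6.68 to -0.65, limma adjusted p = 0.256). For Ccl3 the difference was 1.96, with an interval from -0.99 to 4.90 (limma adjusted p = 0.455). It was 0.61 without library 1, the only library with Ccl3 at 0, and 1.29 without library 12. Without library 9 the differences were -2.33 for Ccl9, -3.47 for Ccl5 and 2.45 for Ccl3 (limma adjusted p = 0.236, 0.266 and 0.373). The values with all 12 libraries stood against an all-gene median of -1.18. Among 14 tests of shares and of the ratio of Ccl6 to Ccl9 between genotypes, the exact 2-sided permutation test reached its smallest p of 0.1 for the shares of Ccl5 (0.79% in PT WT and 0.020% in PT Bcl2) and of Ccl9 (4.46% and 1.45%), with an adjusted value of 0.7 in both. Without library 9 the PT Bcl2 shares were 0.030% for Ccl5 and 0.76% for Ccl9, with an exact permutation p of 0.2 each. That p was computed by doubling the smaller tail, unlike the p of 0.1 above. With library 9 left out, 0.2 is the smallest value this computation allows. The p-values with and without library 9 therefore cannot be compared.

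Within marrow, Ccl6 ranged from 42.7 to 314 TPM, and apart from libraries 2 and 4 its order ran against that of the 4 promyelocyte genes Mpo, Elane, Prtn3 and Ctsg, which encode granule proteins made early in neutrophil development. Library 5 had the lowest sum of these genes, 446 TPM, and the highest Ccl6, 314 TPM. Libraries 6 and 1 followed with sums of 1034 and 1590 TPM and Ccl6 at 234 and 146 TPM. Libraries 4 and 2 held sums of 3160 and 3568 TPM with Ccl6 at 46.0 and 91.8 TPM. Library 3 had the highest sum, 8196 TPM, and the lowest Ccl6, 42.7 TPM. Libraries 1, 5 and 6, with the most Ccl6, also held the most Csf3r (816, 892 and 1038 TPM) and Cxcr2 (1493, 1864 and 1730 TPM), receptors of mature neutrophils, against 132 to 183 TPM and 212 to 399 TPM in libraries 2, 3 and 4. Ccl9 showed no such order, since it was lowest in library 5 (11.04 TPM) and highest in library 3 (58.5 TPM). In PT the promyelocyte genes summed to only 10.7 to 29.6 TPM. This order was noticed in the values, has no test, and the part of immature cells in the difference of Ccl6 between PT and BM was not tested.

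**Figure D4:**
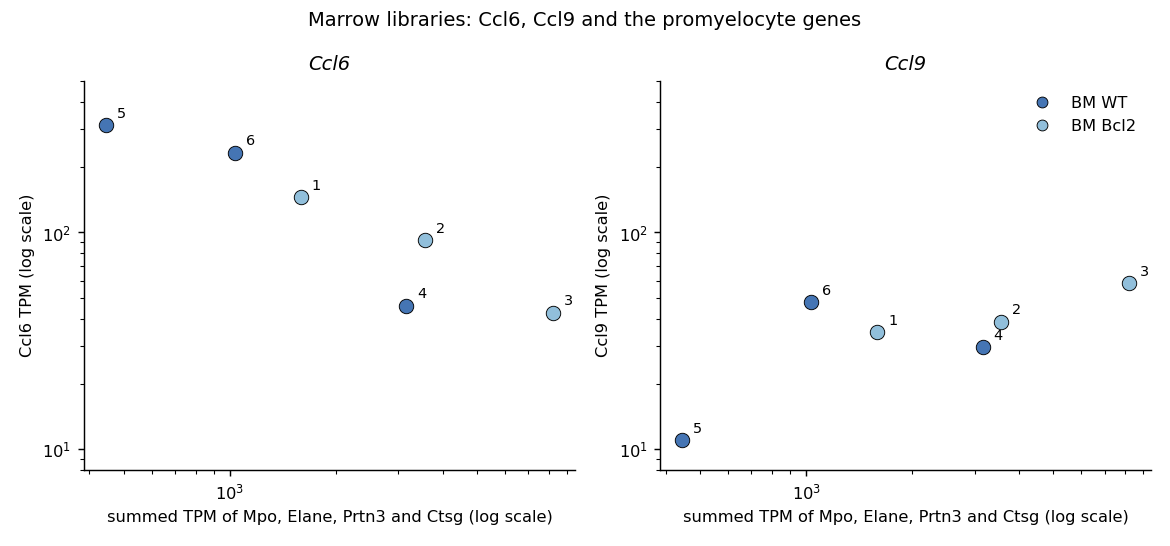
TPM of Ccl6 (left) and Ccl9 (right) against the summed TPM of Mpo, Elane, Prtn3 and Ctsg in the 6 BM libraries, both axes on a log scale, points numbered by library and coloured by genotype. Ccl6 goes from 314 TPM in library 5 to 42.7 TPM in library 3 as the sum goes from 446 to 8196 TPM, and Ccl9 does not fall along the same axis.

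Receptors of the CC chemokines were examined as a list of 15 genes, of which 11 were tested and Ccr8 and Ccr10 were at 0 in every library. Ccrl2, a receptor-like protein that does not signal in the usual way, was called in both genotypes. BM WT held 6.47, 10.1 and 2.44 TPM and PT WT 303, 169.8 and 138 TPM, a difference of 4.88 ± 0.60 (limma adjusted p = 0.00103). BM Bcl2 held 4.30, 5.07 and 7.74 TPM and PT Bcl2 464, 259 and 214 TPM, a difference of 5.50 ± 0.60 (limma adjusted p = 0.000185). No PT library overlapped with marrow, and both calls held without each library in turn (5.73 in MRP8-Bcl2 mice without library 9). Ccr2, the receptor of Ccl2, was called lower in PT of MRP8-Bcl2 mice, at 43.6, 43.3 and 213 TPM in BM and 4.47, 6.42 and 13.7 TPM in PT (-3.16 ± 0.71, limma adjusted p = 0.00789). This call was lost when each library was centred on its median (limma adjusted p = 0.0941) and held without library 9 (-3.56, limma adjusted p = 0.00977). The 4 monocyte genes, Ccr2 among them, summed to 429 to 2004 TPM in BM and to 56.1 to 114 TPM in PT, and the part of monocytes was not tested. Ccr1, a receptor of Ccl3, Ccl5, Ccl6 and Ccl9, was at 35.0 to 133 TPM in BM and 103 to 332 TPM in PT, and was not called in either genotype as deposited. In all, 1 of 11 receptors was called higher and 0 lower in WT, and 1 higher and 1 lower in MRP8-Bcl2 mice. Over all genes 1.59% were called higher and 1.22% lower in WT, and 2.31% higher and 19.1% lower in MRP8-Bcl2 mice. Without library 9, 3 receptors were called in MRP8-Bcl2 mice. The median difference of the 11 was 0.72 in WT and 1.41 in MRP8-Bcl2 mice, against 0.22 and -1.02 over all genes. Between genotypes 0 of 11 were called in BM, in PT or for the change from BM to PT (limma). Over all genes these shares were 0.0223%, 0.0297% and 0.0149%. At an unadjusted p under 0.05 there were 0, 0 and 1, against 7.36%, 12.7% and 16.9% of all genes.

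The other CC ligands formed a list of 18 genes, of which 14 were in the table, 8 were tested, and Ccl1, Ccl19, Ccl20 and Ccl26 were at 0 throughout. In WT, 0 of the 8 were called by limma and 4 had an unadjusted p under 0.05 (16.5% of all genes). In MRP8-Bcl2 mice 3 were higher in PT (Ccl7, Ccl12 and Ccl17) and 2 were lower (Ccl25 and Ccl27a), where 2.31% of all genes were called higher and 19.1% lower. Ccl7, a monocyte chemokine that shares Ccr2 with Ccl2, was at 0, 3.23 and 0 TPM in BM Bcl2 and at 108, 8.51 and 25.3 TPM in PT Bcl2 (4.22 ± 1.29, limma adjusted p = 0.0323). Ccl17, a ligand of Ccr4, was at 2.55, 21.3 and 8.72 TPM in BM and at 224, 348 and 90.9 TPM in PT (4.40 ± 1.44, limma adjusted p = 0.0419). Ccl12, another ligand of Ccr2, was listed at 0 in all 6 BM libraries and at 40.5, 2.31 and 2.44 TPM in PT Bcl2 (limma adjusted p = 0.0307). Ccl27a was listed at 0 in all 6 PT libraries and at 13.4, 5.77 and 14.7 TPM in BM Bcl2 (limma adjusted p = 0.0134), and Ccl25 was at 4.97, 2.17 and 15.0 TPM in BM Bcl2 and at 0 in PT Bcl2 (limma adjusted p = 0.0122). The calls of the 5 were not stable. Ccl7 was lost without libraries 1, 3, 7 or 9, Ccl12 without 1, 2, 3 or 7, and Ccl17 without 1, 2, 3, 7, 8, 9 or 11, with limma adjusted p-values up to 0.115, 0.0933 and 0.114. Ccl25 and Ccl27a were lost without library 3 (limma adjusted p = 0.0501 and 0.0519) and under both scalings by median and quantile. Without library 9, 3 of the 8 were called (Ccl12, Ccl25 and Ccl27a). Median differences of the 8 were 1.34 in WT and 1.72 in MRP8-Bcl2 mice, against 0.22 and -1.02 over all genes. Between genotypes 0 of 8 were called in BM, in PT or for the change (limma), against 0.0223%, 0.0297% and 0.0149% of all genes. At an unadjusted p under 0.05 there were 1, 2 and 1, against 7.36%, 12.7% and 16.9% of all genes.

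In PT, Ccl2 and these ligands varied between libraries. Library 12, with the lowest Ccl2, was also at 0 for Ccl7, Ccl12, Ccl17 and Ccl22. Library 11 had 190.3 TPM of Ccl2, 42.2 TPM of Ccl7, 35.8 TPM of Ccl17 and 10.1 TPM of Ccl22. In library 10 the levels were 189, 27.6, 204 and 32.2 TPM. Library 7 held the highest Ccl2 (199 TPM), Ccl7 (108 TPM) and Ccl12 (40.5 TPM), but 2.84 TPM of Ccl22. It also held the platelet gene Pf4 at 521 TPM, against 0 to 31.8 TPM in the others. The 3 platelet genes together summed to 31.9 to 156 TPM in PT WT and to 13.3 to 526 TPM in PT Bcl2. Platelet genes other than Pf4 thus made up most of the sum in the PT WT library with 156 TPM. Library 7 held Ccr7, a receptor of lymphocytes and dendritic cells, at 96.0 TPM, against 0 to 9.33 TPM in the others. The part of other cells was not tested.

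**Figure D5:**
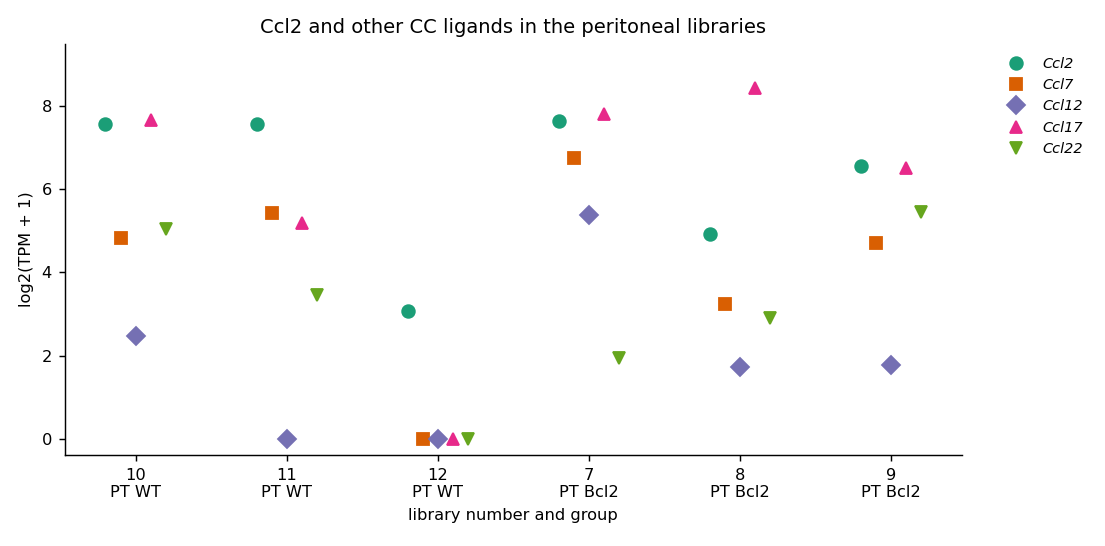
Level in log2(TPM + 1) of Ccl2, Ccl7, Ccl12, Ccl17 and Ccl22 (colours and symbols) in each of the 6 PT libraries (horizontal axis, library number and group). Library 12 is at 0 for the 4 ligands other than Ccl2, which is at 7.46 TPM there, and library 7 is highest for Ccl2, Ccl7 and Ccl12.

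The genes whose log2 values followed each member most closely over the 12 libraries were found by Pearson's r, as a description, since points of 1 group share site and genotype. Ccl3 was followed by Cd274 (r = 0.973), the gene of the checkpoint ligand PD-L1, then Snn (0.965) and Ccrl2 (0.958). Cd274 was at a mean of 16.1 TPM in BM WT, 170 TPM in PT WT, 13.5 TPM in BM Bcl2 and 243 TPM in PT Bcl2. Ccl4 was followed by Csf1 (r = 0.979), the macrophage growth factor, whose means were 20.6, 530, 16.0 and 898 TPM in the same order, and by Gm14654 (0.966) and Gm11540 (0.965). For Ccl2 they were Cstb (0.953), Rhob (0.942) and Fnip2 (0.938). Ccl6 was followed by Mxd1 (0.969), a partner of Max, Slc11a1 (0.958), a metal transporter of phagosomes, and Ifitm1 (0.956). The closest genes to Ccl5 (Myoz2, Tmcc1 and Angptl1, r = 0.850 to 0.875) and to Ccl9 (Ccdc117, Sipa1l3 and Rpl21-ps15, r = 0.845 to 0.875) followed less closely. Among the members themselves, r was 0.913 for Ccl3 and Ccl4, 0.896 for Ccl2 and Ccl3, and -0.15 for Ccl6 and Ccl9. Without library 9 these were 0.907, 0.890 and -0.15, and the r of the genes named above was 0.838 to 0.978.

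Around the members, 18 genes lie within 100000 nt, and 9 of them were tested. Some neighbours of the cluster moved opposite to Ccl3 and Ccl4. Wfdc21, a whey acidic protein family gene, stood at 1392, 1614 and 1681 TPM in BM WT but 43.8, 88.1 and 185 TPM in PT WT (-4.11 ± 0.58, limma adjusted p = 0.00233). BM Bcl2 held 1166, 1296 and 462 TPM and PT Bcl2 66.8, 46.0 and 105 TPM (-3.67 ± 0.58, limma adjusted p = 0.0015). Every marrow library lay above every PT library. 1700020L24Rik fell in WT too (-4.26 ± 0.75, limma adjusted p = 0.00815), and in MRP8-Bcl2 mice it was at 41.8, 47.9 and 49.6 TPM in BM and listed at 0 in PT (limma adjusted p = 0.000722). Taf15 fell in MRP8-Bcl2 mice (-3.65 ± 0.90, limma adjusted p = 0.0127), a call lost without library 3 (limma adjusted p = 0.0549) and under scaling by median or quantile. The calls of Heatr6 in WT and of Gm11438 in MRP8-Bcl2 mice sat at the threshold. Heatr6 (-2.69 ± 0.68, limma adjusted p = 0.0474) kept its call in 2 of the 12 fits without 1 library and in 2 of 8 other settings. Gm11438 was at 151, 22.8 and 0 TPM in BM Bcl2 and at 0, 0 and 0.94 TPM in PT Bcl2, so the groups overlapped, and its call (limma adjusted p = 0.0493) held in 1 of the 12 fits without 1 library and in 0 of 7 other settings. By contrast Wfdc17, of the same family as Wfdc21, was higher in PT of MRP8-Bcl2 mice, at 639, 118 and 204 TPM in BM and 4314, 5206 and 1899 TPM in PT (3.81 ± 0.81, limma adjusted p = 0.00658). Wfdc18 was at 0 in all 3 BM Bcl2 libraries and at 14.6, 43.2 and 71.7 TPM in PT Bcl2 (limma adjusted p = 0.00834). Thus 0 of 9 were called higher and 3 lower in WT, against 1.59% and 1.22% of all genes. In MRP8-Bcl2 mice 2 were called higher and 4 lower, against 2.31% and 19.1% of all genes. Without library 9 the calls of Heatr6 and Gm11438 were lost and the other 7 held. Between genotypes 0 of 9 were called by limma in BM, in PT or for the change, against 0.0223%, 0.0297% and 0.0149% of all genes. At an unadjusted p under 0.05 there were 1, 2 and 4, against 7.36%, 12.7% and 16.9% of all genes. E230016K23Rik, which overlaps Ccl6 on the other strand without sharing an exonic base with it, was at 34.4, 39.9 and 105 TPM in PT WT and at 0.91 to 1.89 TPM in BM WT, a difference that was not called (limma adjusted p = 0.0638). Since the strand setting of the counting is not given in the sources used here, reads from the stretch that both genes span could not be assigned to one of them by strand.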

How the data were processed

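RNA of sorted neutrophils was sequenced in 12 libraries, 3 per group. Cells were sorted into Trizol and their cDNA was amplified before library preparation. The flow cytometry methods define neutrophils as CD11b+ F4/80- GR1++, but the gate used for these libraries is not stated. The authors used AltAnalyze with its defaults. The deposited values are log2(TPM + 1) for each gene and library, and nothing beyond TPM scales one library to another (library sums of TPM from 907055 to 957854). The genome build and the strand setting are not given in the sources used here. Columns with the authors' fold changes and p-values and their averages, marker tables and correlation scores were not used, and 2 columns of a table of 1 unnamed library were left out. Libraries were assigned to groups by the deposited column names. Of 28987 genes, 27458 matched GENCODE M21 (GRCm38) by gene ID.

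The members and gene lists were chosen with earlier results of these data known. The 13456 genes that reached 1 TPM in 3 or more libraries were fitted with limma 3.58.1 in R 4.3.3 (4 groups, a mean trend in the variance, 8 residual degrees of freedom). A call needed an adjusted p (Benjamini-Hochberg) below 0.05 and a 2-fold change, or the adjusted p alone for the change between genotypes. No count test was possible because the deposited values are log2 TPM. The value of 1 read was estimated from low values of 5021 genes with 1 transcript. The limma fit and the read estimate were tested on simulated data. Genes were named by rule: members, called genes of the 2 lists and of the neighbours, list genes at 0 throughout, the 3 genes most correlated with each member, cell type markers and Bcl2. Ccl22, Ccr1, Ccr7 and E230016K23Rik lie outside the rule and were picked with their values known. Alternatives were other pseudocounts, filters, scalings and fits, and each library left out in turn. The alternatives for the neighbours, and the shares and correlations without library 9, were chosen after seeing the data.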

Additional observations from a re-analysis of the deposited data

How the results depend on the processing

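No paired analysis was possible because the columns carry no replicate number. The members were chosen with the difference of PT from BM known, so their calls in it describe only the effect of processing. Ccl4 was called higher in PT under every alternative tried in both genotypes, as was Ccl3 in MRP8-Bcl2 mice. In WT, the number of members called (2) was 1 with a pseudocount of 0.1 TPM, where Ccl3 was lost, and ranged from 1 to 3 without 1 library. Ccl3 was lost without library 10, and Ccl2 was gained at a filter of 5 TPM and without library 7 or 12. In MRP8-Bcl2 mice, where 4 were called, 3 to 4 were called without 1 library, with Ccl2 lost without library 7 and Ccl6 lost without library 3 or 8. The 2 receptors called in MRP8-Bcl2 mice became 4 with median centring and 5 with quantile normalization, and were 2 to 3 without 1 library. The 5 other ligands called there became 3 with a pseudocount of 0.1 TPM, 2 with no filter and 3 at a filter of 5 TPM, and were 0 to 5 without 1 library, with 0 without library 3 (WT, 0 to 1). Of the neighbours, 1 to 2 were called higher and 2 to 3 lower in MRP8-Bcl2 mice over the 20 alternatives. In WT these counts were 0 to 1 and 1 to 3. Leaving out the 100 highest genes took Wfdc17 and Wfdc21 out of the fit, which lowered the counts there. Both genes kept their calls in the other 7 settings and without each library in turn. The call of 1700020L24Rik in WT was lost in the fit of the 2 groups alone (limma adjusted p = 0.0524). Over all genes, the calls of MRP8-Bcl2 mice (311 higher, 2567 lower) became 1636 and 467 with median centring, 679 and 780 with quantile normalization, and 385 and 1557 without the 100 highest genes. In WT (214 and 164), they became 112 and 197, 233 and 264, and 149 and 165.

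With median centring, the difference reversed for Ccl5 (0.27) and Ccl9 (0.82) between PT and BM of MRP8-Bcl2 mice, for Ccl2 (-0.42), Ccl4 (-0.22) and Ccl5 (-0.10) between genotypes in BM, and for Ccl2 in the change between genotypes (1.79). With quantile normalization it reversed for Ccl2 (-0.45) and Ccl4 (-0.060) in BM and for Ccl2 in the change (1.01). The change also reversed for Ccl2 without the 100 highest genes (0.55) and for Ccl4 with a pseudocount of 0.1 TPM (-0.45). None of these differences was called, and the cause was not tested. Without 1 library, differences between genotypes in BM ranged from -0.27 to 0.82 for Ccl2, -1.87 to 0.35 for Ccl3, -0.058 to 1.28 for Ccl4 and -0.023 to 1.71 for Ccl5. In PT they ranged from -1.20 to 1.05 for Ccl2 and -0.056 to 0.43 for Ccl6, and in the change from -1.52 to 0.73 for Ccl2 and -0.30 to 1.04 for Ccl4. Depth limits Ccl5 everywhere and Ccl2, Ccl3 and Ccl4 in marrow, where a value of 0 can stand for a few missed reads.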
